A study of Mus musculus with 31 samples.

Results

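35 genes that encode the machinery of DNA replication and mitosis were followed in 12 RNA-seq libraries of sorted mouse astrocytes. They were taken by gene symbol, with estimated counts summed per gene. All 35 were among the 55401 genes of the files, and all 35 passed the filter on low counts that left 14490 genes for testing. By role, 9 license or open replication origins, 5 make DNA or its precursors, 5 are cyclins and kinases of G1, 3 of S phase and 4 of G2 and mitosis, 7 are mitotic kinases, kinetochore or proliferation genes, and 2 are inhibitors of cyclin-dependent kinases. None of the 35 passed the threshold in any of 5 comparisons between the groups with all 12 libraries. The share of all genes that passed was 0.0% in the comparison of the 1X groups, 0.0345% in that of the 2X groups, 0.0276% between the cytokine groups, 0.0% between the PBS groups and 0.0% for the difference of the cytokine responses. For 19 of the 35 the range of the group means was smaller than the SD within groups. That is a larger share than the 3891 of the 14490 genes tested for which this held.

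A cell about to divide loads the ring-shaped MCM helicase onto its replication origins with the help of Cdc6 and Cdt1. The D-type cyclins with Cdk4 or Cdk6 then carry it through G1, cyclins E and A with Cdk2 through S phase, and cyclins A and B with Cdk1 into mitosis. Most of these genes are silent in resting cells and are switched on in turn, the replication genes through E2F factors and the mitotic genes through complexes that bind CHR and CCAAT motifs. Most astrocytes of the healthy adult brain are out of the cell cycle, and some can re-enter it after injury.

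The study asked what a second exposure to inflammatory cytokines does in astrocytes of mice. Per the labels, C57Bl/6 female mice of 10 weeks received IL-1β at 100 ng/mL with TNF-α at 50 ng/mL, or the buffer PBS alone, into the lateral ventricles. Mice of the groups 2X PBS and 2X cytokine had a first injection and another on day 7. Mice of the groups 1X PBS and 1X cytokine had theirs on day 7. Astrocytes were sorted 18 to 24 hours after the day 7 injection in all 4 groups, and each group has 3 libraries. No group carries a transgene or deletion according to the labels of these libraries. The titles of all 12 libraries begin with SPF, so the 4 groups share that label. A short label names TNF-α alone where the protocol names both cytokines. No source used here gives the markers of the sort or says whether a library is 1 animal or a pool, so the p-values measure no more than the spread between these libraries, and that spread may be technical.

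Library totals ran from 1878418 to 5521679 estimated counts, and a floor of 3 counts corresponds to 0.528 to 1.65 CPM, the unit of scaled counts used below, across libraries. The lowest count of any of the 35 genes in any library was 5.99. Astrocyte markers were abundant: 12 summed to 29499, 8537 and 8095 CPM for 1X PBS, 11627, 22809.8 and 25662 for 1X cytokine, 21174, 21334 and 23466 for 2X PBS and 26706, 22702 and 23027 for 2X cytokine. Replicate 1 of both 1X groups stood apart from its label, each lying with the other 1X group. On the first principal component of all genes, 1X PBS replicate 1 lay at -41.2 against 67.5 and 67.0 for replicates 2 and 3, and 1X cytokine replicate 1 lay at 39.8 against -29.3 and -38.8. Libraries labelled 2X PBS lay at 11.02 to 17.8 and those labelled 2X cytokine at -40.7 to -30.0. The labels were kept as given. Whether those of 1X PBS replicate 1 and 1X cytokine replicate 1 were exchanged was not tested, and the 1X comparison, both comparisons with the 2X groups and the difference of responses rest on them.

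Markers of other cells were present: 12 neutrophil genes summed to 32.03, 1073 and 1298 CPM for 1X PBS, 511, 21.8 and 27.6 for 1X cytokine, 352, 299.9 and 272 for 2X PBS and 175, 43.9 and 14.5 for 2X cytokine, with 8 of the 12 at 0 in at least 1 library. For 10 monocyte and macrophage genes the sums were 156, 2039 and 1891 CPM for 1X PBS, 651, 139 and 151 for 1X cytokine, 565, 554 and 560.1 for 2X PBS and 214, 145 and 105 for 2X cytokine. For 8 choroid plexus genes, led by Ttr, the sums were 8637, 26733 and 27206 CPM for 1X PBS, 28887, 12245 and 21520.5 for 1X cytokine, 14752, 13709 and 15865 for 2X PBS and 3909.9, 7786 and 14478 for 2X cytokine. In 1X PBS replicates 2 and 3 and 1X cytokine replicate 1 the choroid plexus sum was above the astrocyte sum. Calls among the DNA replication and mitosis genes that rest on the replicate 1 libraries are therefore given with and without them. For the further lists of pathway genes this was done only in part. In these bulk libraries, fewer cells of a type and less RNA per cell cannot be told apart.

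Levels between genes were compared per length, as TPM, the deposited length-scaled abundance. Cdkn1a had the highest mean at 222 ± 71.5 TPM (SD, n = 12 libraries), followed by the G1 genes Ccnd3 at 207 ± 17.1, Cdk4 at 172 ± 23.1 and Ccnd2 at 139 ± 23.8 TPM. An inhibitor and genes of G1 thus held the first 4 places. Replication genes followed, with Pcna at 55.7 ± 4.0, Rrm1 at 40.5 ± 11.9 and Mcm7 at 31.3 ± 6.66 TPM. Mki67, the common marker of cycling cells, had 4.48 ± 1.84 TPM, and Cdc6 and Cenpe were lowest at 1.95 ± 0.974 and 1.73 ± 0.843 TPM. Neighbours in this order, such as Mcm4 at 22.6 ± 4.36 and Mcm6 at 22.1 ± 3.61 TPM, lay within each other's spread. The sums take in all transcripts of a gene, coding or not. Retained-intron transcripts held 32.7% of the TPM of Cdk4, and transcripts marked for nonsense-mediated decay held 39.6% of that of Rrm1. The order of protein-coding transcripts alone may therefore differ.

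Promoters of 28 of the 35 genes were matched in RefSeq (GRCm38.p6), as windows from 250 bases before to 30 bases after the start. The E2F motif, searched as TTTCCCGC, TTTCGCGC, TTTGCCGC or TTTGGCGC on both strands, was in 7 of 28 windows (25.0%) and in 2.16% of 27025 gene windows of the same length. The CHR motif TTTGAA was in 5 of 28 (17.9%), against 17.4% of all windows, and CCAAT was in 19 of 28 (67.9%), against 36.6%. These are matches of letters, not measured binding. 5 windows are shown 5′ to 3′ on the gene's strand with matches in capitals: Mcm3 and Mcm6 as origin helicase genes, Cdk1 and Ccnb2 as the mitotic kinase and 1 of its cyclins, and Cdkn1a as an inhibitor with none of the motifs.
Mcm3: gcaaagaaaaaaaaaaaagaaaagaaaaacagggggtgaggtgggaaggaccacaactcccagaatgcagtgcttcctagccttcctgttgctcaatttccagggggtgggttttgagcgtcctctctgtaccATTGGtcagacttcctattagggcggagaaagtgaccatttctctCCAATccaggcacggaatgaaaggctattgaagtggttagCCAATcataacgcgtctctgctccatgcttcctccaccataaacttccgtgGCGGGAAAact
Mcm6: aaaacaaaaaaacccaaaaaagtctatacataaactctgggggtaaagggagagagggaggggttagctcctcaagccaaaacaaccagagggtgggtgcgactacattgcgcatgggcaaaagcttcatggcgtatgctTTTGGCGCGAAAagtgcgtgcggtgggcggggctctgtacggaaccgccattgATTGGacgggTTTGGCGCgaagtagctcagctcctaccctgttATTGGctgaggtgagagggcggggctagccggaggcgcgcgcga
Cdk1: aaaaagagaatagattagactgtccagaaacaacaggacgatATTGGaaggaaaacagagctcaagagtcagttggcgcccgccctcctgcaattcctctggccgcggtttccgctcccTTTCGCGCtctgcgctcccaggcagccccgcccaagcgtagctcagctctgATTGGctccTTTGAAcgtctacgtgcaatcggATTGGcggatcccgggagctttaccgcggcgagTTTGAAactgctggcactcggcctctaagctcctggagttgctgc
Ccnb2: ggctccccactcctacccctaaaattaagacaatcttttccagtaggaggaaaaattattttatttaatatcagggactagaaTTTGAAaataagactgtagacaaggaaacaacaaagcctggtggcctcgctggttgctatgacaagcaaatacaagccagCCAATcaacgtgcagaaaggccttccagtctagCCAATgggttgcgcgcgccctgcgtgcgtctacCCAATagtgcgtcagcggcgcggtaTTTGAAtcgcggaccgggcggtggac
Cdkn1a: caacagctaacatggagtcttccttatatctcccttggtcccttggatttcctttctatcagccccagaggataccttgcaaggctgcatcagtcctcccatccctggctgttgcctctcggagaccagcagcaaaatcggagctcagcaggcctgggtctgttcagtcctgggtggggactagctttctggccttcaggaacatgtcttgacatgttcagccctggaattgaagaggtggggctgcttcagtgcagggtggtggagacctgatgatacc
The window of Mcm3 is chr1:20820283-20820562 on the minus strand, with 1 E2F match at 20 to 27 bases after the start and 3 CCAAT matches. Mcm6, at chr1:128359676-128359955 on the minus strand, holds 3 E2F matches, of which 2 overlap, and 2 CCAAT matches. Cdk1, at chr10:69352883-69353162 on the minus strand, holds all 3 kinds, with 1 E2F, 2 CHR and 3 CCAAT matches. Ccnb2, at chr9:70421525-70421804 on the minus strand, has 2 CHR and 3 CCAAT matches and none for E2F. Cdkn1a is at chr17:29090729-29091008 on the plus strand. Of the 35 genes, 9 overlap another protein-coding gene (Mcm7, Cdt1, Gins2, Ccnd1, Ccnd3, Cdk4, Ccne2, Cdk2 and Ccna2), and no source used here says whether counting used strand.

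**Figure D1:**
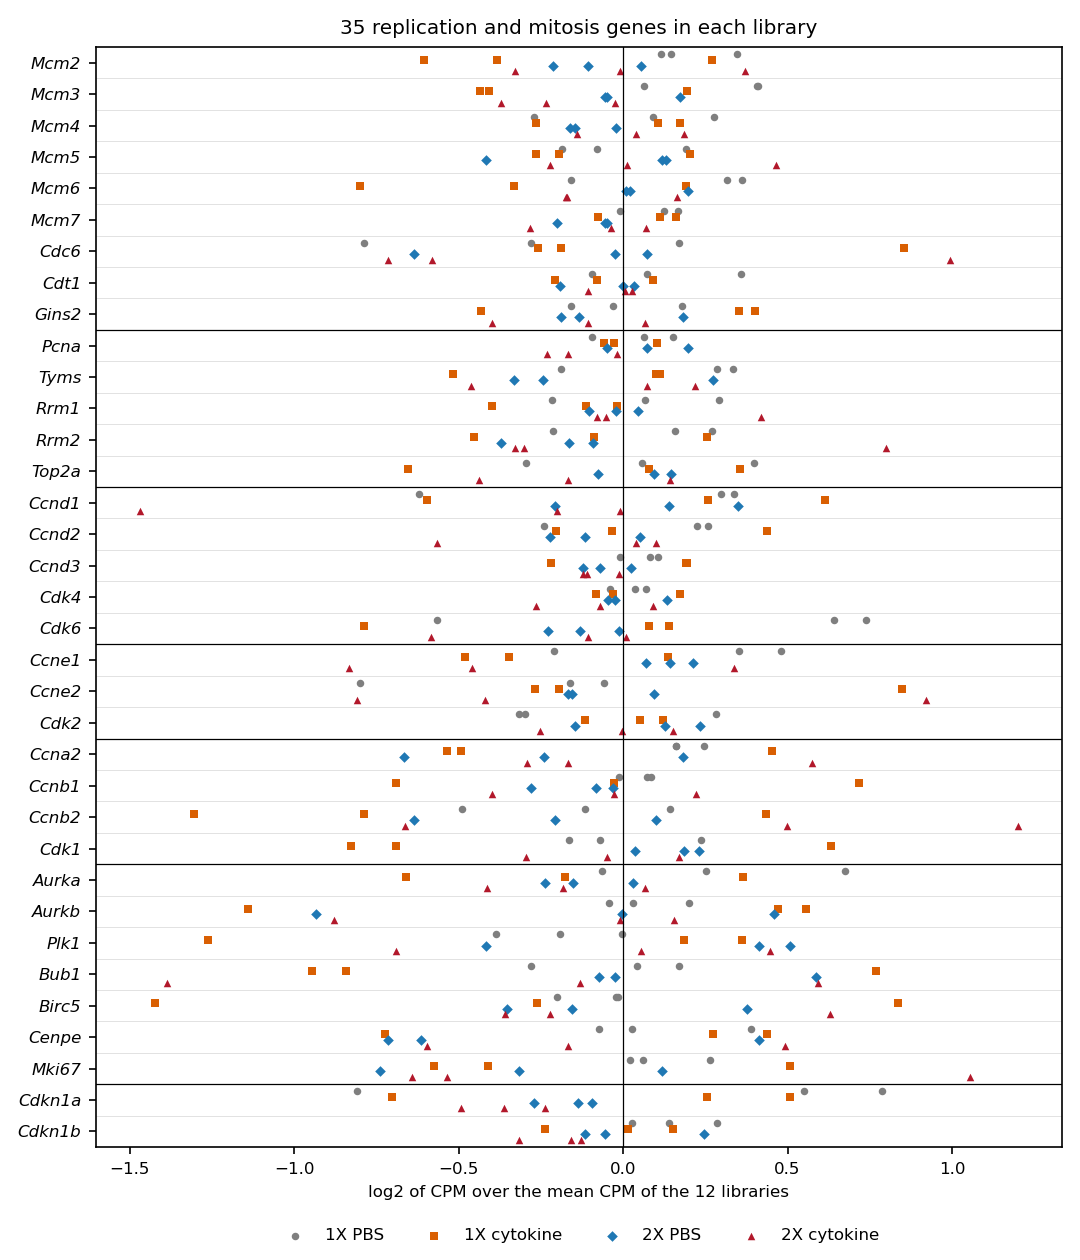
Each point is 1 library: its CPM divided by the mean of the 12 libraries, on a log2 axis, for the 35 genes in order of role (black lines part the roles). Points of different groups mix for most genes, and 2X cytokine replicate 1 is the highest point for Mki67 (64.6 CPM) and Ccnb2 (19.6 CPM).

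Among the licensing and helicase genes, Mcm7, a subunit of the helicase ring, had 48.3, 53.02 and 54.7 CPM for 1X PBS, 52.6, 54.4 and 46.2 for 1X cytokine, 46.98, 46.8 and 42.3 for 2X PBS and 51.1, 39.95 and 47.4 for 2X cytokine. For Mcm4, another subunit, the values were 66.2, 58.2 and 45.2 CPM for 1X PBS, 45.5, 58.8 and 61.5 for 1X cytokine, 53.8, 49.3 and 48.9 for 2X PBS and 62.1, 56.1 and 49.5 for 2X cytokine. Neither gene had a library far from the rest. All 3 libraries labelled 2X PBS were below all 3 labelled 1X PBS for Mcm7, and the groups overlapped in every pair for Mcm4. Mcm6, whose 3 E2F matches are shown above, had 40.3, 55.96 and 57.8 CPM for 1X PBS, 51.4, 35.7 and 25.8 for 1X cytokine, 45.3, 45.6 and 51.5 for 2X PBS and 50.3, 39.9 and 39.9 for 2X cytokine. Replicate 3 of 1X cytokine was lowest for Mcm6 and 1X PBS replicates 2 and 3 were highest. Mcm2 read 35.4, 36.1 and 41.5 CPM for 1X PBS, 39.3, 25.00 and 21.4 for 1X cytokine, 33.9, 30.3 and 28.1 for 2X PBS and 42.2, 26.00 and 32.4 for 2X cytokine. Its 2X PBS libraries also lay below all 1X PBS libraries, and 2X cytokine replicate 1 was the highest of the 12. Mcm3 read 45.3, 45.4 and 35.7 CPM for 1X PBS, 39.1, 25.7 and 25.3 for 1X cytokine, 33.01, 38.6 and 32.9 for 2X PBS and 33.6, 29.01 and 26.4 for 2X cytokine. Mcm3 was low in 1X cytokine replicates 2 and 3 and high in 1X PBS replicates 1 and 2, with replicate 1 of 1X cytokine between the values of 1X PBS.

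The other 4 genes of this role were Mcm5 at 20.7 to 38.2 CPM, Cdt1 at 8.79 to 13.02, Gins2, a part of the active helicase, at 14.3 to 25.4, and Cdc6, the loader of the helicase, at 2.28 to 7.85 CPM. Cdc6 was highest in 2X cytokine replicate 1 at 7.85 CPM and next in 1X cytokine replicate 1 at 7.13 CPM. Retained-intron transcripts carried 50.4% of the counts given to Gins2, so its sum is less certain as a measure of messenger RNA.

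Among the genes of DNA synthesis, Pcna, the sliding clamp of DNA polymerase, had 47.2, 55.96 and 52.6 CPM for 1X PBS, 54.1, 48.4 and 49.5 for 1X cytokine, 48.7, 52.99 and 57.7 for 2X PBS and 49.8, 44.8 and 42.9 for 2X cytokine. Rrm1, the large subunit of ribonucleotide reductase, had 89.2, 76.3 and 62.6 CPM for 1X PBS, 71.9, 67.3 and 55.3 for 1X cytokine, 71.7, 75.2 and 67.8 for 2X PBS and 97.4, 70.2 and 68.98 for 2X cytokine. Rrm2, the small subunit that is made in S phase, had 48.7, 37.7 and 52.6 CPM for 1X PBS, 52.1, 41.1 and 31.9 for 1X cytokine, 38.9, 41.02 and 33.8 for 2X PBS and 76.05, 35.4 and 34.8 for 2X cytokine. For both subunits the highest library was 2X cytokine replicate 1, while the other libraries of 2X cytokine lay within the range of 2X PBS. Tyms, which makes thymidylate, ranged over 11.2 to 20.2 CPM, with 34.6% of its counts on retained-intron transcripts and 22.2% on transcripts marked for nonsense-mediated decay. Top2a, a topoisomerase of S phase and mitosis, ranged over 25.3 to 52.4 CPM and was highest in 1X PBS replicate 2.

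Of the G1 genes, Ccnd3, a D-type cyclin, had 259, 281 and 277 CPM for 1X PBS, 299, 224 and 298 for 1X cytokine, 239.8, 249 and 266 for 2X PBS and 239.8, 259 and 242 for 2X cytokine. Cdk4, its kinase partner, had 122, 125 and 116 CPM for 1X PBS, 134, 117 and 113 for 1X cytokine, 117, 115 and 131 for 2X PBS and 99.3, 127 and 114 for 2X cytokine. The 12 libraries of Cdk4 thus lay within a range of 99.3 to 134 CPM, and no group stood apart. Ccnd2, the more abundant D-type cyclin in CPM, had 247, 342 and 350.1 CPM for 1X PBS, 396, 286 and 254 for 1X cytokine, 303, 251 and 270.0 for 2X PBS and 198, 300.4 and 313 for 2X cytokine. Its lowest library was 2X cytokine replicate 1, which was highest for 10 of the 28 genes outside the G1 and inhibitor roles. Cdk6, the other G1 kinase, had 24.6, 60.8 and 56.9 CPM for 1X PBS, 40.2, 38.5 and 21.1 for 1X cytokine, 36.2, 33.3 and 31.1 for 2X PBS and 24.3, 33.9 and 36.7 for 2X cytokine. It was high in 1X PBS replicates 2 and 3 and low in replicate 1 of the same group. Ccnd1 ranged over 2.79 to 11.8 CPM, lowest in 2X cytokine replicate 3.

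In the S phase role, Cdk2, the kinase that fires origins, had 15.98, 15.8 and 23.9 CPM for 1X PBS, 21.4, 20.4 and 18.1 for 1X cytokine, 17.8, 21.5 and 23.1 for 2X PBS and 19.6, 21.9 and 16.5 for 2X cytokine. Ccne1, a cyclin that activates it, had 6.85, 7.48 and 4.64 CPM for 1X PBS, 5.90, 4.22 and 3.85 for 1X cytokine, 5.93, 5.63 and 6.22 for 2X PBS and 6.78, 3.01 and 3.90 for 2X cytokine. Ccne2, the second such cyclin, had 3.80, 2.27 and 3.54 CPM for 1X PBS, 7.13, 3.46 and 3.29 for 1X cytokine, 3.53, 4.23 and 3.55 for 2X PBS and 7.497, 2.26 and 2.96 for 2X cytokine. Groups overlapped for all 3 genes. Ccne2 was highest in replicate 1 of both cytokine groups, the same libraries that were highest for Cdc6.

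Among the genes of G2 and mitosis, Cdk1, the mitotic kinase shown above with its promoter, had 12.2, 16.1 and 12.99 CPM for 1X PBS, 21.1, 8.45 and 7.69 for 1X cytokine, 13.97, 15.5 and 15.99 for 2X PBS and 15.4, 13.2 and 11.1 for 2X cytokine. Replicate 1 of 1X cytokine was highest for Cdk1, and replicates 2 and 3 of the same group were lowest. Ccna2, the cyclin of S phase and G2, had 31.6, 29.8 and 29.8 CPM for 1X PBS, 36.5, 18.4 and 18.96 for 1X cytokine, 30.3, 22.6 and 16.8 for 2X PBS and 39.7, 21.8 and 23.8 for 2X cytokine. For Ccnb1, the main mitotic cyclin, the values were 26.1, 26.3 and 24.6 CPM for 1X PBS, 40.8, 24.4 and 15.4 for 1X cytokine, 24.3, 23.4 and 20.4 for 2X PBS and 28.9, 18.8 and 24.3 for 2X cytokine. The 2X PBS libraries of Ccnb1 all lay below those of 1X PBS, and by less than 1 CPM at the nearest point. Ccnb2 read 6.09, 9.42 and 7.89 CPM for 1X PBS, 11.6, 3.46 and 4.95 for 1X cytokine, 5.502, 9.15 and 7.40 for 2X PBS and 19.6, 12.1 and 5.40 for 2X cytokine. Its highest library was 2X cytokine replicate 1 and its next 2X cytokine replicate 2, while replicate 3 of that group lay below every library of 1X PBS. A related pseudogene, Ccnb2-ps, was listed at 0.740 to 5.57 CPM, so reads may have been divided between the 2.

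Mitotic kinases and kinetochore genes were low in count. Birc5, a member of the chromosomal passenger complex, had 9.16, 8.06 and 9.14 CPM for 1X PBS, 16.5, 3.46 and 7.74 for 1X cytokine, 12.02, 7.26 and 8.33 for 2X PBS and 14.3, 7.94 and 7.22 for 2X cytokine. Aurkb, the kinase of that complex, had 9.89, 9.42 and 11.1 CPM for 1X PBS, 14.3, 13.4 and 4.40 for 1X cytokine, 5.08, 9.68 and 13.3 for 2X PBS and 9.64, 5.27 and 10.8 for 2X cytokine. Aurka, the kinase of the spindle poles, had 9.13, 15.2 and 11.4 CPM for 1X PBS, 12.3, 8.45 and 6.04 for 1X cytokine, 9.73, 8.10 and 8.59 for 2X PBS and 10.00, 7.16 and 8.401 for 2X cytokine. Groups overlapped for these 3 genes in every comparison. Birc5 and Aurkb were highest in 1X cytokine replicate 1 and Aurka in 1X PBS replicate 2. Plk1 ranged over 3.30 to 11.3 CPM, Bub1 of the spindle checkpoint over 2.26 to 10.1 CPM and Cenpe, a kinetochore motor, over 3.85 to 8.93 CPM.

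Mki67 is described because of its values, together with Ccnb2 and Cdk6, and not by the rule that named the other genes. It had 31.6, 32.4 and 37.3 CPM for 1X PBS, 44.2, 23.4 and 20.9 for 1X cytokine, 24.97, 33.8 and 18.7 for 2X PBS and 64.6, 21.5 and 19.96 for 2X cytokine. Replicate 1 was the highest library in both cytokine groups, and the other 4 cytokine libraries lay within 20.0 to 23.4 CPM. Without the replicate 1 libraries, no cytokine library exceeded any 1X PBS library for Mki67.

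**Figure D2:**
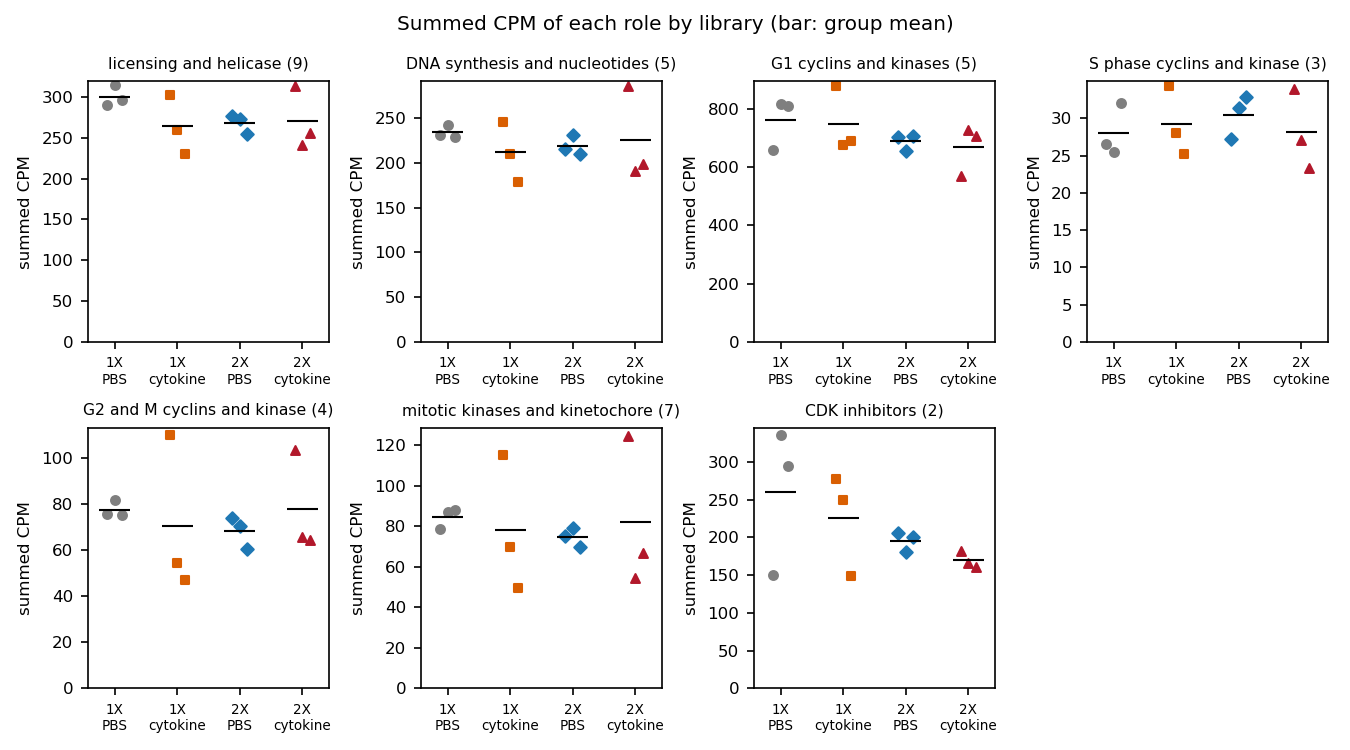
CPM summed over the genes of each role (number of genes in brackets) for each library, by group, with the group mean as a bar; axes start at 0. In the roles of G2 and M and of mitotic kinases, replicate 1 of 1X cytokine (110.0 and 115 CPM) and of 2X cytokine (104 and 125 CPM) lay above the other libraries of their groups.

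Of the 2 inhibitors, Cdkn1a, which encodes p21 and is a target of p53, had 95.9, 290.0 and 246 CPM for 1X PBS, 239, 200.4 and 103 for 1X cytokine, 153, 139 and 157 for 2X PBS and 142, 131 and 119 for 2X cytokine. The lowest library and the 2 highest all carried the label 1X PBS. Cdkn1b, which encodes p27, had 54.4, 45.4 and 49.2 CPM for 1X PBS, 37.9, 49.5 and 45.1 for 1X cytokine, 52.9, 41.2 and 42.9 for 2X PBS and 39.99, 35.8 and 40.8 for 2X cytokine. Every 2X cytokine library of Cdkn1b lay below every 2X PBS library, by less than 1 CPM at the nearest point.

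Across the 12 libraries, 2X cytokine replicate 1 was the highest library for 10 of the 35 genes, 1X cytokine replicate 1 for 9 and 1X PBS replicate 2 for 8. The shallowest library, 1X cytokine replicate 3, was lowest for 15 of the 35. Replicates 1 and 2 of 2X PBS were neither highest nor lowest for any. How often each library was highest or lowest over all genes tested was not counted. The counts for the 35 genes are therefore not read as particular to them. The median SD within groups was 0.35 on the log2 scale for the 35 genes and 0.30 for all 14490 genes tested. The median range of the 4 group means was 0.35 for the 35 genes and 0.40 for all genes tested.

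Genes of maturing blood cells were high in 2X cytokine replicate 1, of which Slc4a1 and Ngp were chosen after their values were seen. Slc4a1, the anion exchanger of red cells, was at 403 CPM there and at 82.9 and 34.8 CPM in replicates 2 and 3. Ngp, a granule gene of immature neutrophils, was at 37.1 CPM there against 5.65 and 2.10 CPM. The 7 erythroid markers summed to 6134, 15761 and 64887 CPM for 1X PBS, 7661, 955 and 2634 for 1X cytokine, 3570.5, 2165 and 514 for 2X PBS and 13454, 4992 and 2532 for 2X cytokine, with none at 0 in any library. The sum over all 12 neutrophil markers was 175 CPM in 2X cytokine replicate 1. The highest sums of both lists were in 1X PBS replicate 3, where Mki67 was 37.3 CPM. Neural stem and neuroblast markers, 12 genes, summed to 382 to 548 CPM over the libraries, and 10 oligodendrocyte precursor markers to 357 to 565 CPM. In 2X cytokine replicate 1 these sums were 382 CPM, the lowest of the 12 libraries, and 418 CPM. The precursor sum rests mainly on Cspg4, at 157 to 330 CPM over the libraries, and Olig1, at 71.5 to 153 CPM. Pdgfra of the same list had 10.3 to 27.7 CPM. The part of the blood cell RNA in the levels of Mki67 and the other mitotic genes was not tested.

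**Figure D3:**
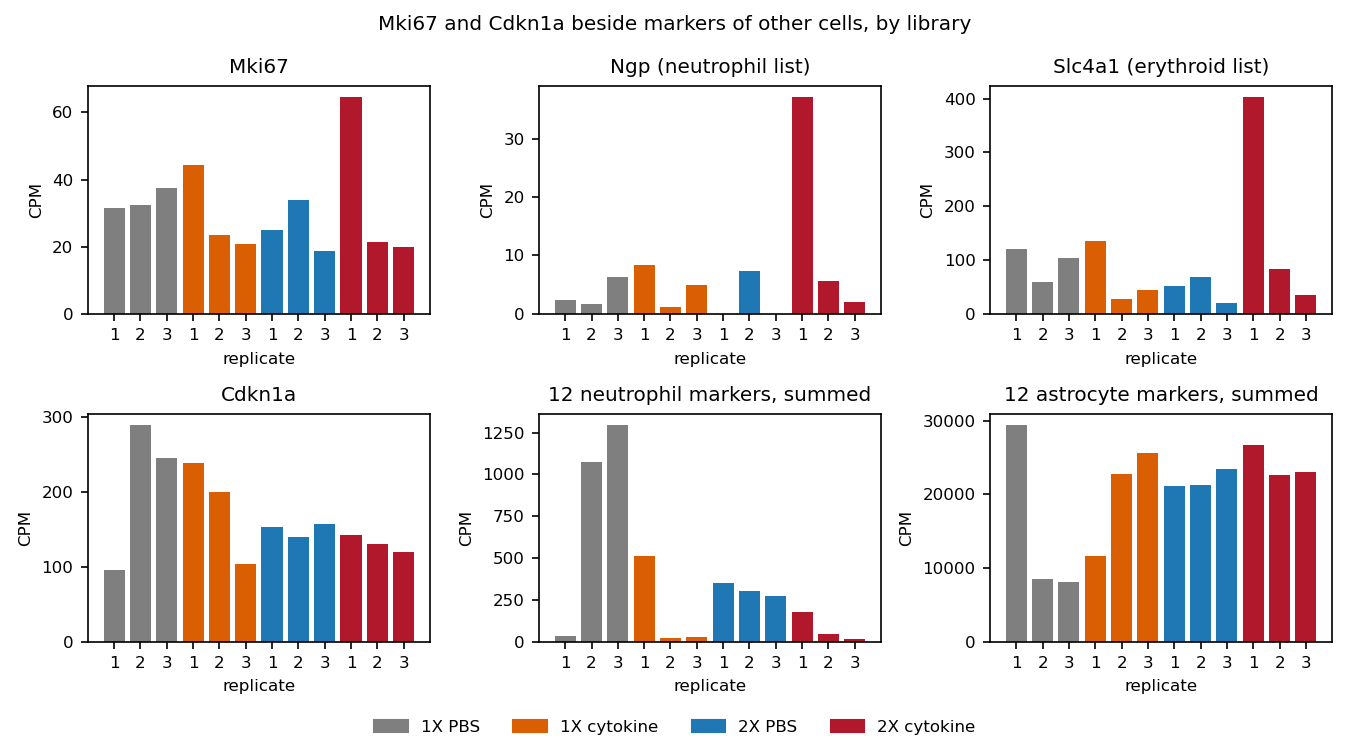
CPM in each of the 12 libraries (bars from 0, coloured by group, numbered by replicate) for Mki67 and Cdkn1a and for markers of blood cells and astrocytes. Mki67 was highest in 2X cytokine replicate 1, as were Ngp and Slc4a1, which were chosen for it, while the neutrophil sum was 175 CPM there and 1298 CPM in 1X PBS replicate 3, and Cdkn1a and the neutrophil sum were both highest in 1X PBS replicates 2 and 3.

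The first comparison asks what a single cytokine injection did. Between 1X cytokine and 1X PBS, 0 of the 35 genes passed an adjusted p of 0.05 in edgeR's quasi-likelihood test with Benjamini-Hochberg adjustment over all 14490 genes, where the share of all genes called was 0.0%. At an unadjusted p under 0.05 there was 1 of 35, Mcm3, against 5.4% of all genes. Mcm3 averaged 30.03 ± 7.84 CPM against 42.1 ± 5.56 CPM (SD, n = 3 each), a log2 fold change of -0.47 ± 0.19 (SE, unadjusted p = 0.0293, adjusted p = 0.866 in edgeR). The median log2 fold change was -0.04 over the 35 genes and -0.01 over all genes. For no gene of the 35 were the groups without overlap, against 6.22% of all genes. DESeq2 called 0 of the 35 too (0.0138% of all genes), as did limma in each comparison. On the scale of log2(TPM + 1), 20 of the 35 lay above 0 where 11 did on the count scale. The median of the 35 was 0.03 there and that of all genes moved to 0.12, so the signs depended on the scale. On both scales the median of the 35 lay below that of all genes.

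The precision differed by gene. The 95% interval of the log2 fold change lay within 1 in both directions for 24 of the 35. For Cdk4 it was -0.27 to 0.28 and for Pcna -0.29 to 0.22. For Ccne2 it was -0.45 to 1.67 and for Ccnb2 -1.26 to 0.93, so a 2-fold higher Ccne2 or a 2-fold lower Ccnb2 was not excluded.

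Without replicate 1 of both 1X groups, 6 of the 35 genes fell and 0 rose, 17.1% of the 35, in a fit where 23.5% of all 14848 genes were called and 11.5% were called lower. The 6 were the helicase genes Mcm6, Mcm3 and Mcm2, the kinases Cdk1 and Cdk6, and Cdkn1a. On GRCm38 they lie at chr1:128331590-128359664, chr1:20802968-20820312, chr6:88883474-88898780, chr10:69335146-69352938, chr5:3341485-3531008 and chr17:29090976-29100727, in that order. Mcm6 had a log2 fold change of -0.84 ± 0.17 (SE, adjusted p = 0.003 in edgeR), on libraries at 35.7 and 25.8 CPM against 55.96 and 57.8 CPM. Cdk6 had -0.92 ± 0.23 (adjusted p = 0.010), on 38.5 and 21.1 against 60.8 and 56.9 CPM. Each value of the cytokine libraries lay below each of PBS for these genes. The log2 fold changes of the others were -0.81 for Cdk1, -0.78 for Cdkn1a, -0.71 for Mcm2 and -0.64 for Mcm3, with adjusted p from 0.018 to 0.037 in edgeR. 31 of the 35 had values below 0, with a median of -0.31 against 0.00 for all genes.

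With 1 of the 2 libraries left out at a time, 0 of the 35 were called. The 6 calls rest on 2 libraries against 2, whose spread is taken from all groups. The 2 replicate 1 libraries were left out for their place on the first principal component of these same data. Leaving them out on that ground can itself set the remaining 1X libraries apart. The calls and adjusted p of each fit without them are therefore no independent support for a difference. With limma on log2(TPM + 1) in the same 10 libraries, which changes the test, the unit and the genes tested together, 0 of the 35 were called, 25 of 35 lay below 0 with a median of -0.11, and the median of all genes moved to 0.15. With the relative log expression scaling of edgeR, the same 6 genes were called. In this comparison the marker lists moved too: 11 of 12 astrocyte markers rose and 1 fell, 9 of 10 monocyte and macrophage markers fell, and 6 of 12 neutrophil markers fell. Endothelial markers fell for 6 of 10, ependymal markers for 7 of 8, erythroid markers for 5 of 7 and microglia markers for 4 of 12. The part of these cells in the 6 calls was not tested. Aldoc, an astrocyte enzyme, was at 1927 and 1771 CPM in 1X PBS replicates 2 and 3 and at 8604 CPM in replicate 1.

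**Figure D4:**
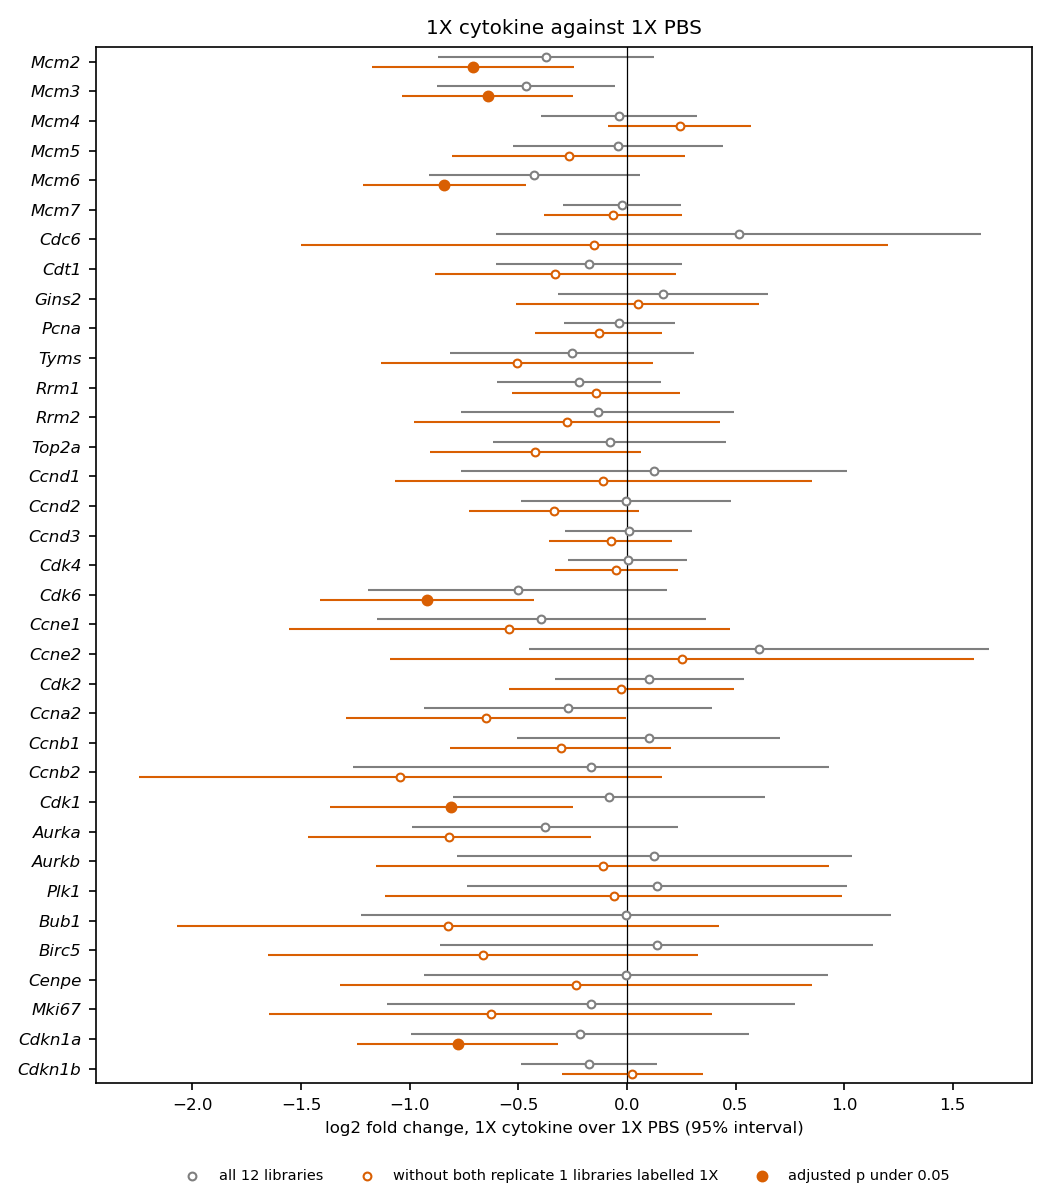
Log2 fold change of 1X cytokine over 1X PBS with its 95% interval for the 35 genes, from all 12 libraries (grey) and without replicate 1 of both 1X groups (orange); filled points have an adjusted p under 0.05 in edgeR. Filled points are the 6 genes Mcm2, Mcm3, Mcm6, Cdk6, Cdk1 and Cdkn1a, all below 0 and all in the fit without those libraries.

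The second comparison sets the groups with 2 injections against each other, cytokine against PBS. The part of the first injection and that of the day 7 injection cannot be told apart in it. Between 2X cytokine and 2X PBS, 0 of the 35 genes passed the adjusted threshold, against 0.0345% of all genes. At an unadjusted p under 0.05 in edgeR there were 0 of the 35, against 9.68% of all genes. Cdkn1b was the 1 gene of the 35 whose groups did not overlap, lower in 2X cytokine at 38.9 ± 2.69 CPM against 45.7 ± 6.32 CPM (SD, n = 3 each). Such a separation was found for 25.3% of all genes, 14.1% in the lower direction. Its log2 fold change was -0.22 ± 0.14 (SE, adjusted p = 0.696 in edgeR). The median over the 35 genes was -0.03, with 16 above and 19 below 0. DESeq2 called 0 of the 35 (0.787% of all genes), and so did the edgeR fit without replicate 1 of both 1X groups (7.02%, with 0 of the 35 and 19.8% of all genes at an unadjusted p under 0.05).

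A fit of the 6 libraries labelled 2X alone called 7.74% of 13765 genes and still 0 of the 35, with 0 of the 35 and 20.8% of all genes at an unadjusted p under 0.05. Intervals lay within 1 on the log2 scale in both directions for 27 of the 35. For Cdk4 the interval was -0.32 to 0.15, for Ccnd3 -0.21 to 0.17 and for Cdkn1a -0.39 to 0.03. For Mki67 it was -0.41 to 1.25 and for Ccnb2 -0.17 to 1.54. These intervals exclude a 2-fold change for the first 3 genes and not for the last 2.

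Many signs depended on 2X cytokine replicate 1. Without it, 29 of the 35 genes lay below 0 in the 2X libraries alone, with a median of -0.14, where 16 lay above and 19 below with it. Mki67 went from 0.42 to -0.35, Rrm2 from 0.36 to -0.11 and Ccnb2 from 0.68 to 0.17. None of the 35 was called without it either, against 5.77% of all genes, and 2 of 35 had an unadjusted p under 0.05 in edgeR, against 17.9%. These were Cdkn1a at -0.25 ± 0.11 (SE, adjusted p = 0.234 in edgeR) and Top2a at -0.34 ± 0.15 (adjusted p = 0.265).

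**Figure D5:**
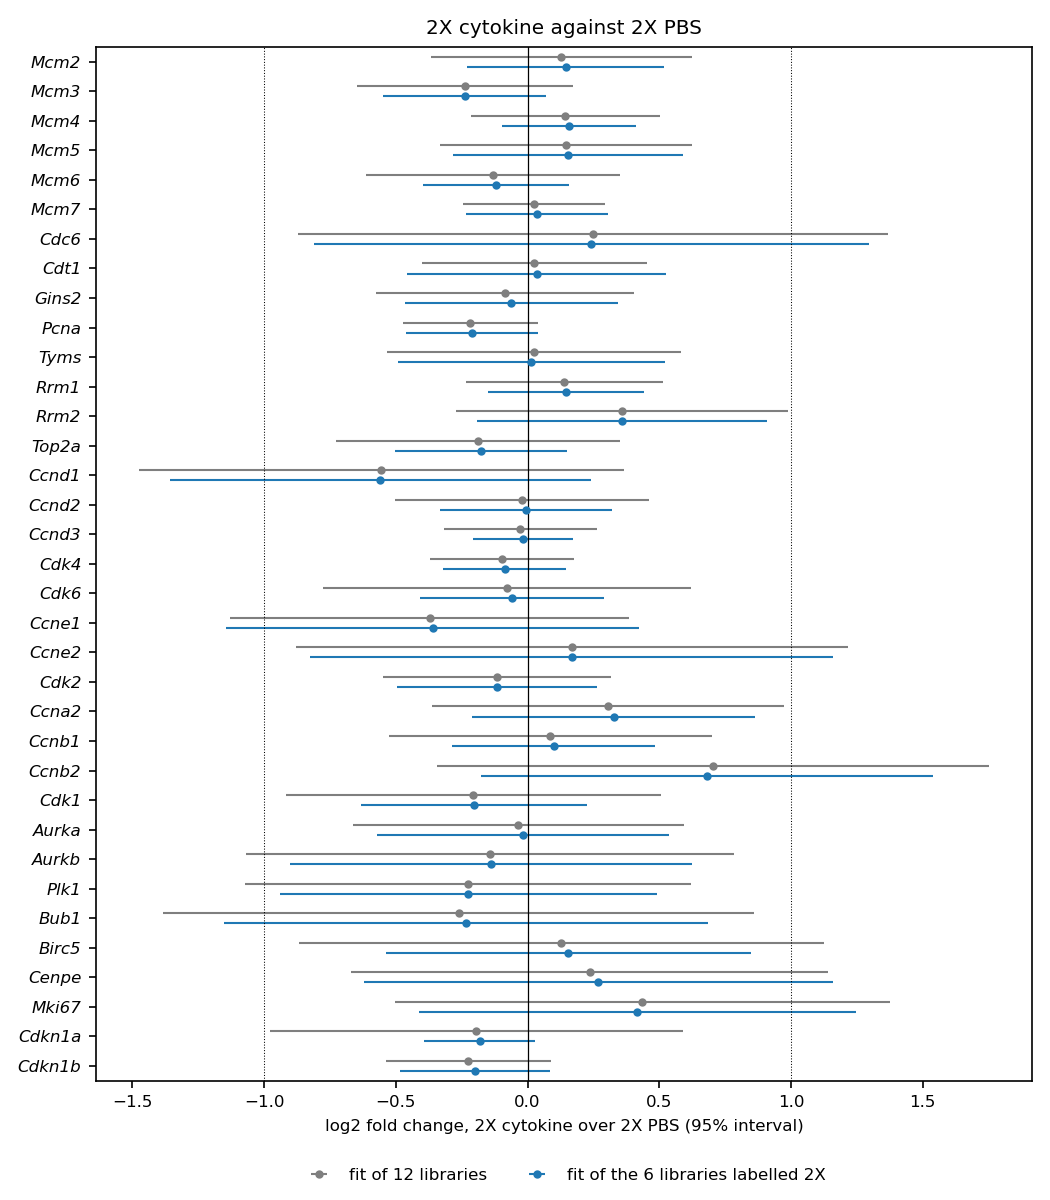
Log2 fold change of 2X cytokine over 2X PBS with its 95% interval for the 35 genes, from all 12 libraries (grey) and from the 6 libraries labelled 2X (blue); dotted lines mark 2-fold. Every interval includes 0, and among the narrowest are those of Ccnd3, Cdk4 and Pcna and among the widest those of Cdc6, Ccne2 and Bub1.

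The third comparison sets the second cytokine injection against the first. Between 2X cytokine and 1X cytokine, 0 of the 35 genes passed the adjusted threshold (0.0276% of all genes). Of the 35, 0 had an unadjusted p under 0.05 in edgeR (7.0% of all genes) and 0 had groups without overlap (12.5% of all genes). DESeq2 called 0 of the 35 (0.0552%). The median log2 fold change was -0.07 over the 35 genes and -0.01 over all genes. On the scale of log2(TPM + 1) these medians were 0.09 and 0.05. There 20 of the 35 lay above 0, where 14 did on the count scale, so the signs depended on the scale. On the count scale, values ran from -0.64 for Ccnd1 to 0.81 for Ccnb2, both with intervals that include 0 (-1.58 to 0.29 and -0.27 to 1.88). Without replicate 1 of both 1X groups, 0 of the 35 were called (0.0202% of all genes) and 5 had an unadjusted p under 0.05 (9.57% of all genes). The median of the 35 was then 0.21, with 25 of 35 above 0.

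The comparison of the PBS groups sets 2 PBS injections against 1. Both groups were injected on day 7, and no group without an injection is among the 12 libraries. The effect of injection as such was therefore not tested. Between 2X PBS and 1X PBS, 0 of the 35 genes passed the adjusted threshold, against 0.0% of all genes, and 0 had an unadjusted p under 0.05 in edgeR, against 6.31%. For 3 of the 35, Mcm2, Mcm7 and Ccnb1, all 2X PBS libraries lay below all 1X PBS libraries, against 6.05% of all genes in that direction and 11.5% in either. DESeq2 called 0 of the 35 (0.117% of all genes). Their log2 fold changes were -0.30 ± 0.22, -0.20 ± 0.12 and -0.18 ± 0.28 (SE), with adjusted p of 0.807, 0.787 and 0.888 in edgeR. On the scale of log2(TPM + 1), 26 of the 35 genes lay above 0 where 10 did on the count scale. The median of the 35 was 0.10 there and that of all genes moved to 0.15. On the count scale these medians were -0.11 and -0.03. The signs depended on the scale, so no direction is given for the group as a whole.

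Without replicate 1 of both 1X groups, Cdkn1a and Cdk6 fell from 1X PBS to 2X PBS and 0 rose, against 18.6% of all genes called and 8.47% called lower. At an unadjusted p under 0.05 there were 3 of 35, against 31.1%. Cdkn1a fell by 0.82 on the log2 scale (adjusted p = 0.00789 in edgeR) and Cdk6 by 0.79 (adjusted p = 0.010). The libraries behind Cdkn1a were 153, 139 and 157 CPM in 2X PBS and 290.0 and 246 CPM in 1X PBS. Both genes are also among the 6 of the 1X comparison, which shares the 1X PBS libraries. The omitted 1X PBS replicate 1 had 95.9 CPM of Cdkn1a and 24.6 CPM of Cdk6, below every 2X PBS library for both. All 12 astrocyte markers rose in the same fit, while 5 of 12 neutrophil, 5 of 10 monocyte and macrophage, 5 of 10 endothelial and 5 of 7 erythroid markers fell. Their part in the 2 calls was not tested. With limma on log2(TPM + 1), 0 of the 35 were called.

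The difference between the 2X and the 1X cytokine response was tested as an interaction. It passed for 0 of the 35 genes, against 0.0% of all genes, and 0 had an unadjusted p under 0.05 in edgeR, against 5.2%. DESeq2 called 0 of the 35 (0.0897% of all genes). Intervals were wider here, within 1 in both directions for 16 of the 35. For Mki67 the difference was 0.60 ± 0.61 (SE, interval -0.73 to 1.93) and for Cdkn1a 0.02 ± 0.51 (interval -1.08 to 1.13). Without replicate 1 of both 1X groups it passed for 0 of the 35 genes, against 9.33% of all genes, and 5 had an unadjusted p under 0.05 in edgeR, against 23.4%. The nearest to the threshold was Mcm6 at 0.72 ± 0.22 (adjusted p = 0.058 in edgeR).

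Other genes of the pathway were read from 4 further lists. With all 12 libraries, 0 of 34 tested replication genes (37 listed), 0 of 37 mitosis genes (38 listed), 0 of 32 cell cycle regulators (33 listed) and 0 of 14 p53 targets (16 listed, Cdkn1a left out) were called in each of the 5 comparisons, where the shares of all genes called are those given at the start. Cdkn2a, which encodes p16 and ARF, had no counts in any library. Log2 fold changes (SE) are given for the gene of smallest p in a list, none of which passed. Between 2X cytokine and 2X PBS, for the lists of mitosis genes, regulators and p53 targets, these were Ttk, a checkpoint kinase, at -0.85 ± 0.37, Lin9 of the DREAM complex at -0.76 ± 0.34 and Eda2r at -1.65 ± 0.37. Between 1X cytokine and 1X PBS, for all 4 lists, they were Pole, a DNA polymerase, at 0.64 ± 0.31, Kif23, a kinesin of cytokinesis, at -0.60 ± 0.30, Mycn at -0.96 ± 0.54 and Pmaip1 at -1.93 ± 0.84. Eda2r, Pmaip1 and Mycn were near or below the floor of counts in some libraries. At an unadjusted p under 0.05 in edgeR the 4 lists held 0, 1, 1 and 2 genes in the first of these comparisons, against 9.68% of all genes, and 0, 0, 0 and 1 in the second, against 5.4%. For 2X PBS against 1X PBS, the genes were Tipin, a replication fork protein, at -0.25 ± 0.13, Melk, a mitotic kinase, at -1.05 ± 0.43, Pkmyt1, an inhibitor of Cdk1, at -0.32 ± 0.18 and Zmat3 at 0.51 ± 0.18. There the 4 lists held 0, 3, 0 and 3 genes at an unadjusted p under 0.05, against 6.31% of all genes. The median log2 fold change of the mitosis list was -0.25 there, with 29 of 37 below 0, and -0.03 for all genes. Without replicate 1 of both 1X groups it was -0.30, with 31 of 37 below 0, and -0.004 for all genes. The other list values of this comparison are given with all 12 libraries only. These medians were read on the count scale alone. For the genes chosen by role, the signs in this comparison depended on the scale, so no direction is given for the mitosis list.

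In the 6 libraries labelled 2X alone, 2 of the 14 p53 targets fell, Fas and Eda2r. No gene of the other 3 lists was called, in a fit that called 7.74% of 13765 genes. Without 2X cytokine replicate 1, neither was called, with adjusted p of 0.054 for Fas and 0.066 for Eda2r in edgeR, at log2 fold changes of -0.89 and -1.89. Fas, a death receptor, had 13.7, 42.1 and 28.3 CPM for 1X PBS, 25.8, 11.5 and 14.8 for 1X cytokine, 34.3, 28.7 and 19.8 for 2X PBS and 11.8, 15.4 and 14.1 for 2X cytokine. All 2X cytokine libraries of Fas lay below all 2X PBS libraries, with a log2 fold change of -0.98 ± 0.22 (SE, adjusted p = 0.015 in edgeR). Eda2r, a receptor of the tumour necrosis factor family, had 3.80, 3.05 and 2.55 CPM for 1X PBS, 3.69, 3.07 and 3.30 for 1X cytokine, 5.93, 5.46 and 3.85 for 2X PBS and 2.14, 1.13 and 1.5 for 2X cytokine. It too was lower in each 2X cytokine library than in each 2X PBS library, at -1.63 ± 0.43 (adjusted p = 0.036). The floor of 3 counts was 1.07, 1.13 and 0.900 CPM in the 2X cytokine libraries. Eda2r was thus near the floor in that group and at it in replicate 2. In the same fit, monocyte and macrophage markers fell for 5 of 10, microglia, neutrophil and mural and fibroblast markers for 4 of 12, 4 of 12 and 4 of 10, and endothelial markers for 1 of 10. Oligodendrocyte markers rose for 6 of 10, oligodendrocyte precursor markers for 2 of 10 and ependymal markers for 2 of 8, while 2 of 12 astrocyte markers rose and 1 fell. The oligodendrocyte sums were 4305, 3374 and 2981 CPM in 2X PBS and 6104, 6724 and 5600.2 CPM in 2X cytokine, without overlap. The part of these cells in the calls of Fas and Eda2r was not tested.

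Without replicate 1 of both 1X groups, the 1X comparison called genes of each list. Orc5 of the origin recognition complex rose, and Cks2 and Cdc25c of the mitosis list fell. 5 regulators rose, E2f6, Rb1, Lin52, Ccnh and E2f5, of which Rb1 restrains the E2F factors. Of these, Ccnh and E2f5 were named after their values were seen, as was Mdm2 below. 4 p53 targets fell, Pmaip1, Btg2, Fas and Mdm2, together with Cdkn1a. Pmaip1, which promotes cell death, was at 19.1 and 22.7 CPM in 1X PBS replicates 2 and 3 and at 1.54 and 1.21 CPM in 1X cytokine replicates 2 and 3. In 1X PBS replicate 1 it was 1.52 CPM, and in 1X cytokine replicate 1 7.72 CPM. The floor of 3 counts was 1.15 and 1.65 CPM in 1X cytokine replicates 2 and 3. Pmaip1 was thus near the floor in both and below it in replicate 3. The libraries of this fit are the same as those behind the 6 calls among the 35 genes, and 23.5% of all genes were called there.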

How the data were processed

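RNA of sorted astrocytes was read by SMART-Seq2 in 12 libraries, 3 in each of 4 groups named in the titles. Per the submitters' processing notes the authors used kallisto 0.46.1 with GRCm38, and the deposited files give estimated counts and TPM per transcript for 142604 transcripts. The deposited estimated counts were summed per gene and rounded for testing, and CPM is the count scaled to a common library total. TPM was deposited by the authors and summed per gene.

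All 12 libraries were fitted together with edgeR 4.0.16 in R 4.3.3 (filterByExpr, TMM scaling, quasi-likelihood test, adjustment by Benjamini-Hochberg over all genes, threshold 0.05), checked on simulated data. Alternatives were DESeq2 1.42.0, limma 3.58.1 on log2(TPM + 1) and log2(TPM + 0.1), another scaling, no filter, a replicate block, and libraries left out. Genes were described library by library when their unadjusted p was under 0.05, their groups did not overlap, or their mean TPM was among the 3 highest of their role. From each pathway list up to 3 genes of smallest p per comparison could be named. Not every such gene is reported here. The members and lists were chosen with earlier results of these data known. The SE and 95% interval of a fold change come from the edgeR fit and its spread between libraries. The floor of 3 counts covers counting error only. 3 against 3 libraries cannot reach an exact permutation p below 0.1. The 19 ATAC-seq samples were not analysed here.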

Additional observations from a re-analysis of the deposited data

How the results depend on the processing

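None of the 35 genes was called under any alternative but the fits of 10 libraries without replicate 1 of both 1X groups, which called 6 in 1X cytokine against 1X PBS and 2 in 2X PBS against 1X PBS, with TMM or relative log expression scaling. The relative log expression and limma fits of those 10 libraries, and the 2X libraries without 2X cytokine replicate 1, were chosen after seeing the data. Leaving out replicate 1 of both 1X groups was itself prompted by the place of these libraries on the first principal component of these data. Of 3848 values of single genes under alternatives, 3339 kept their direction, 493 uncalled ones changed sign, and 16 were called under an alternative. The main fit had no call to lose.

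Counts over all genes moved more. For 1X cytokine against 1X PBS (0 in the main fit) they were 251 with no filter, 2 with DESeq2, 6 and 5 with limma at pseudocounts of 1 and 0.1, and 3489, 3498 and 2252 in the 10 libraries with TMM, relative log expression and limma. With 1 library left out at a time they ran from 0 to 1141, the highest without 1X PBS replicate 1. For 2X cytokine against 2X PBS (5) they were 460 with no filter, 114 with DESeq2, 1065 in the 6 libraries alone, 1042, 1039 and 344 in the 10 libraries, 825 in the 2X libraries without 2X cytokine replicate 1 and 0 to 125 with 1 library left out, the highest without 1X PBS replicate 1. For 2X against 1X cytokine (4) they were 193 with no filter, 8 with DESeq2, 9 with limma at 0.1, 0 in the 6 libraries alone, 23 with limma in the 10 libraries and 0 to 3 with 1 library left out. For 2X against 1X PBS (0) they were 97 with no filter, 17 with DESeq2, 1 with limma at 1, 2759, 2764 and 1505 in the 10 libraries and 0 to 1116 with 1 library left out, the highest without 1X PBS replicate 1. For the difference of responses (0) they were 70 with no filter, 13 with DESeq2, 1 and 2 with limma, 1386, 1366 and 567 in the 10 libraries and 0 to 17 with 1 library left out. The cause of these differences was not tested.

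With the replicate block, 0 of the 35 genes were called and the counts over all genes were 0, 2, 0, 0 and 0 in the order above. Same-numbered libraries correlated at -0.62 to 0.16 over 18 pairs, and 2 of 12 libraries correlated best with their own number, so the numbers were not read as a pairing. The lowest count of the 35 genes was 5.99 in a library; the part of depth in the width of the intervals was not tested.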
